A study of Schizothorax plagiostomus with 18 samples.

Results

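Spawning and post-spawning testes of the snow trout Schizothorax plagiostomus, a river fish that breeds seasonally, were compared by RNA sequencing. The comparison took 6 of the 18 libraries of the study, chosen by their labelled sex and maturational stage: 3 from testes at spawning and 3 from testes after spawning. The 3 testes sampled before spawning entered the same fit and are shown beside them, and the 9 ovary libraries, 3 per stage, serve as libraries that the comparison did not use. All fish of the 6 libraries were males, each library is labelled with 1 of 3 seasons, and library numbers 1, 2 and 3 correspond to seasons 1, 2 and 3 at every stage. The labels give no age, strain or treatment, and nothing in the labels says whether a library came from 1 fish or from several.

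A fish testis holds germ cells at successive steps, from spermatogonia that renew themselves, through spermatocytes in meiosis, to spermatids and sperm, together with Sertoli cells that nurse them and Leydig cells that make androgens. In seasonal breeders the make-up of the organ changes over the year: sperm fill the lobules at spawning, and after spawning residual sperm are cleared while spermatogonia remain. RNA from the whole organ adds these cells together, so fewer cells of a type and less RNA per cell cannot be told apart. The features measured are single transcripts or clusters of transcripts known only by identifier, with no gene names or sequences in the files. The labelled tissue could therefore not be checked against marker genes, and features are described below by level, stage and gonad, without a function.

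The 6 libraries held between 31900000 and 52700000 counts, and the 3 pre-spawning testes between 24700000 and 43700000. Levels are given as CPM, the counts of a feature scaled to a library of 1000000 counts. A feature with 0 counts could still hold up to 3 counts by counting error alone, or 0.057 to 0.0941 CPM in the 6 libraries. The scaled comparison used TMM factors computed within the 9 testis libraries. These were 1.2253 to 1.4253 in pre-spawning, 0.7253 to 0.964 in spawning and 0.7779 to 0.9819 in post-spawning testes. CPM and every ordering of libraries below leave these factors out. Orderings against pre-spawning testes therefore apply to CPM and were not repeated on scaled levels.

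The post-spawning testes were far more alike than the testes of any other stage. The displaced share, which is the percentage of counts that would have to move between features to turn one library into the other, was 9.5% to 14% between post-spawning testes. It was 25.5% to 36.7% between spawning testes and 22.3% to 32.8% between pre-spawning testes. Across the stages, spawning and post-spawning testes differed by 23.3% to 34.4%, with a median of 26.3%, so spawning testes differed from each other (median 35%) at least as much as from post-spawning testes. Spawning testis 1 was the most distant, at 36.7% from spawning testis 2 and 35% from spawning testis 3, which differed from each other by 25.5%. For 32791 features with a mean of at least 1 CPM over the 6 libraries, the median SD of log2(CPM + 0.5) was 0.578 in spawning, 0.217 in post-spawning and 0.484 in pre-spawning testes, and 85.5% of features varied less between post-spawning than between spawning testes.

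Presence and absence of features showed the same contrast. A feature was counted as present in only 1 library of a pair when it stood at 5 CPM or more in one and at 0 counts in the other. Pairs of post-spawning testes held 1, 7 and 12 such features, whereas the other 33 pairs of testes held 39 to 353. Among pairs of ovaries, post-spawning ovaries 2 and 3 held 0, against 58 to 206 in the other 35. In the labels a second library code is given as Y1IIIB, Y1_IIIB_2 and Y1IIIC for post-spawning testes 1, 2 and 3, and as X4IIIA and X4_IIIA_2 for post-spawning ovaries 2 and 3. Spawning testes carry Y1IIA, Y3IIA and Y4IIA, and the codes are not explained in the sources used here. The counts of the 3 post-spawning testes differed by more than Poisson counting noise (chi-square per degree of freedom 23.6 to 104, counting features with 20 or more counts in both libraries together). In the other 33 pairs of testes this value was higher, at 148 to 432. It is set against counting noise only, so it cannot decide whether the libraries came from separate fish. The libraries were kept as separate samples. By their season labels the 3 libraries came from seasons 1, 2 and 3, which a common source would contradict, and the season labels could not be checked. With the codes unexplained, separate fish sampled after spawning and repeated sampling of a common source cannot be told apart here. Every p-value below takes the 3 libraries as separate samples, and every use of season below takes the season labels as given.

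**Figure D1:**
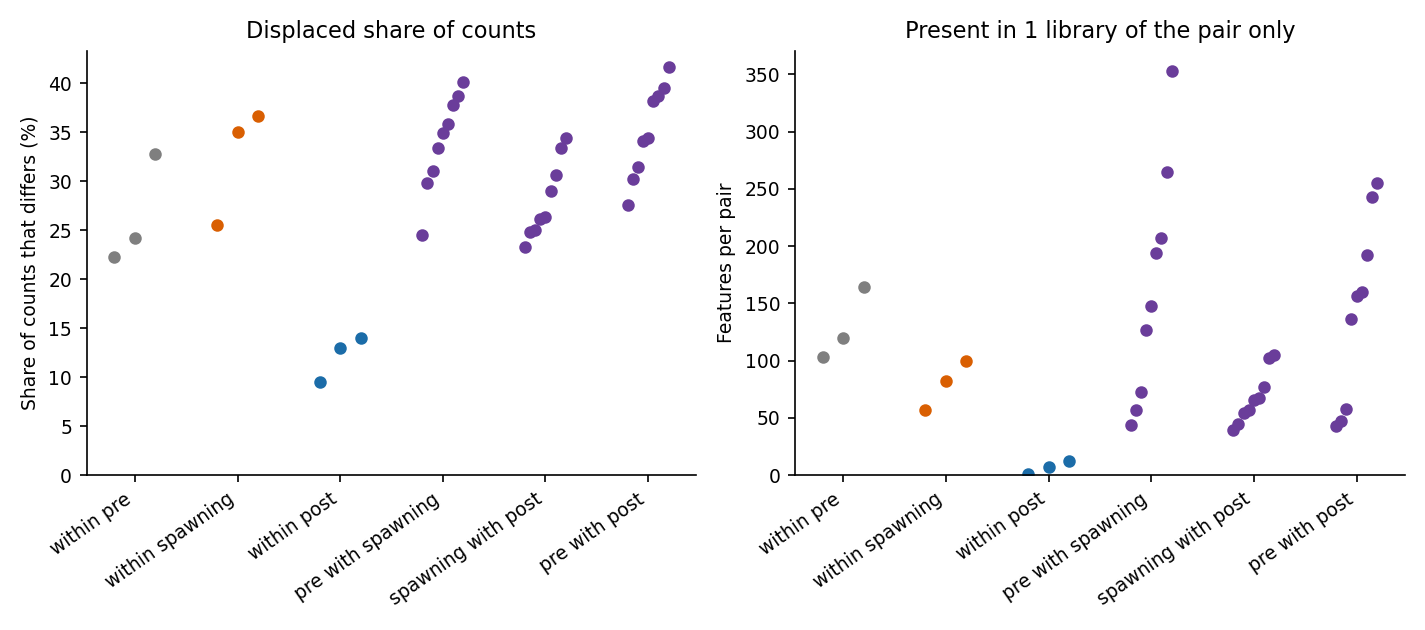
Each point is a pair of testis libraries. The left axis gives the percentage of counts that differs between the 2 libraries and the right axis the number of features at 5 CPM or more in one library and 0 counts in the other. Pairs of post-spawning testes lie at 9.5% to 14% and at 1 to 12 features, below every other pair, and pairs of a spawning with a post-spawning testis overlap with pairs of spawning testes.

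Between spawning and post-spawning testes, 18 of 51080 features passed an adjusted p of 0.05 (0.0352%; edgeR quasi-likelihood test with Benjamini-Hochberg adjustment), 9 higher (0.0176%) and 9 lower (0.0176%) after spawning. All 18 changed at least 4-fold and 14 changed at least 16-fold. Among all features tested, 1685 were at least 4-fold higher and 2927 at least 4-fold lower, so most changes of this size did not pass. Without adjustment, 3304 features (6.47%) were higher and 4801 (9.4%) lower at p under 0.05. Over all features tested, the log2 fold change had a median of -0.12, and 43.8% lay above 0. With season as a block 3 features passed, 1 higher and 2 lower, with 7272 at an unadjusted p under 0.05. With DESeq2, 1212 features (2.37%) were higher and 1488 (2.91%) lower. The count fell to 0 without spawning testis 2, or without post-spawning testis 1, 2 or 3 (edgeR; 8512, 5538, 5150 and 4632 at an unadjusted p under 0.05). It fell to 3 without spawning testis 3 and rose to 177 without spawning testis 1, to 44 without pre-spawning testis 1 and to 36 without pre-spawning testis 3. The fits without a library tested 53659 to 54718 features. With the 3 post-spawning libraries summed to 1 sample, an alternative chosen after seeing the data, 0 features passed (edgeR; smallest adjusted p 0.464, 1479 at an unadjusted p under 0.05).

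**Figure D2:**
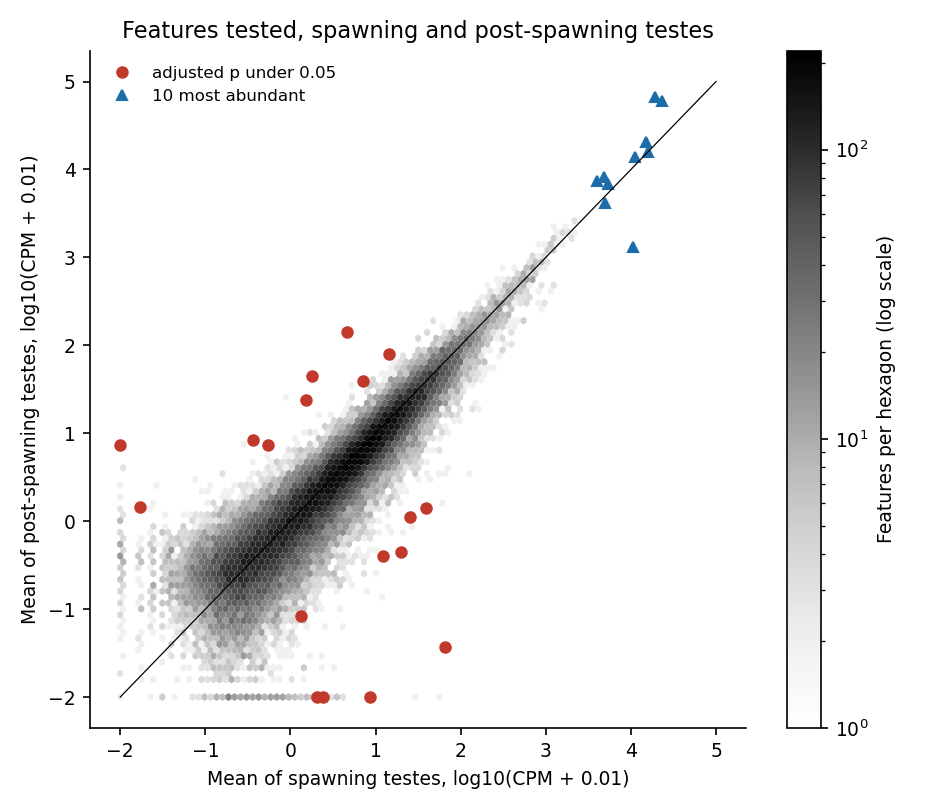
Each hexagon counts tested features by their mean level in the 3 spawning testes (horizontal axis) and in the 3 post-spawning testes (vertical axis), both as log10(CPM + 0.01), with the line of equal level drawn. The 18 features that passed (circles) lie far from the line, 9 on each side, and the 10 most abundant features (triangles) lie at the upper right, where cluster18 and cluster0 are above the line and cluster13781 is below it.

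The 9 features that rose had their highest testis CPM after spawning. In each of them every post-spawning testis exceeded the 6 other testes, a pattern seen in 3.83% of all features tested. Part of this pattern follows from how the 9 were selected, by their difference from spawning testes. Of 6131 features with every post-spawning testis above every spawning testis, 1955 had the full pattern. The summed level of the 9 was 36.8, 22.9 and 30.7 CPM in spawning testes 1, 2 and 3 and 376, 337 and 347 CPM in post-spawning testes 1, 2 and 3. A single feature made up much of this. The single transcript cluster70958 stood at 2.63, 4.95 and 6.36 CPM at spawning and at 158, 131 and 135 CPM after spawning (log2 fold change 4.93 with SE 0.57, adjusted p = 0.0331 by edgeR; 0.0935 with the season block). Its level before spawning, 1.78 to 5.79 CPM, overlapped with that at spawning.

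Another single transcript, cluster62570, stood at 1.62, 1.23 and 2.55 CPM in spawning testes and 43.8, 47.3 and 41.7 CPM in post-spawning testes (log2 fold change 4.65 with SE 0.44, adjusted p = 0.0163 by edgeR; 0.0523 with the season block). The post-spawning libraries lay within 41.7 to 47.3 CPM, and no other testis exceeded 2.55 CPM. The feature cluster11904, made of 4 transcripts, rose from 1.99, 1.34 and 1.23 CPM to 20.1, 27.8 and 23.5 CPM (log2 fold change 3.96 with SE 0.32, adjusted p = 0.00661 by edgeR; 0.0436 with the block). It was the only rise that passed with the block. Its level before spawning, 3.68 to 5.49 CPM, lay between the other stages without overlap.

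Smaller or rarer rises completed the group. The features cluster58567 and cluster31468 were already present at the earlier stages. The first stood at 9.03, 4.75 and 7.36 CPM at spawning and 42.2, 37.8 and 39.4 CPM after it (log2 fold change 2.55 with SE 0.32, adjusted p = 0.0441 by edgeR; 0.0972 with the block). The second stood at 20.7, 9.74 and 12.2 CPM and then at 86, 70.4 and 82.1 CPM (log2 fold change 2.53 with SE 0.33, adjusted p = 0.0496 by edgeR; 0.0873 with the block). In both, pre-spawning and spawning testes overlapped. The feature cluster18178 rose from 0.497 to 0.596 CPM to 6.3 to 8.24 CPM (log2 fold change 3.78 with SE 0.4, adjusted p = 0.0283 by edgeR; 0.0713 with the block), and cluster76532 from 0.266 to 0.432 CPM to 8.12 to 8.96 CPM (log2 fold change 4.55 with SE 0.52, adjusted p = 0.0331 by edgeR; 0.0829 with the block).

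At the low end, cluster62775 had 0 counts in the 3 spawning testes and 2 in the 3 pre-spawning testes, against 8.32, 6.84 and 6.8 CPM after spawning. It was at least 339-fold higher after spawning, with a floor of 3 counts over the spawning group (edgeR adjusted p = 0.0445; 0.115 with the season block). In ovaries this feature was present in some libraries and absent from others: 10.2 and 7.11 CPM in pre-spawning ovaries 2 and 3, 13.5 CPM in post-spawning ovary 1, and 0 counts in the other ovaries. The feature cluster48007 had 1 count at spawning and 194 after it, or 1.49, 1.29 and 1.58 CPM, a ratio of 204 with an exact 95% counting interval from 36.2 to 8110 (edgeR adjusted p = 0.0445; 0.0972 with the block). The ratio was 138 without spawning testis 1 and 136 without spawning testis 2, and the single count lay in spawning testis 3. Its fitted log2 fold change ranged from 6.77 to 9.08 over the alternatives.

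**Figure D3:**
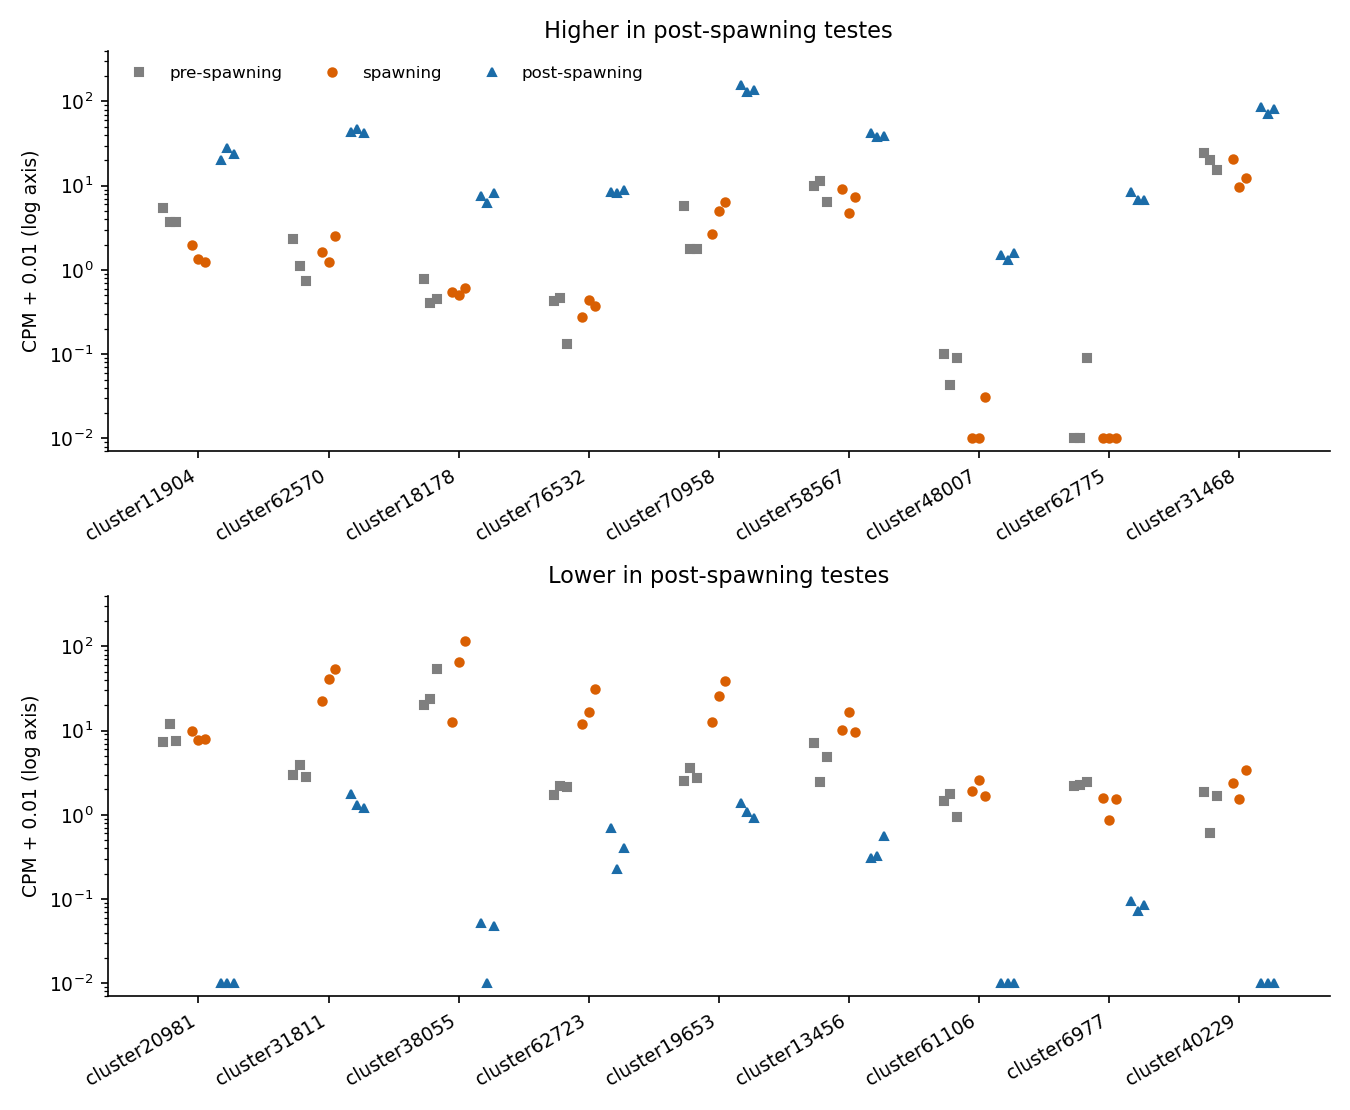
Points give the level of each of the 18 features that passed in the 9 testes, as CPM + 0.01 on a log axis, with libraries 1, 2 and 3 from left to right within a stage. Points at 0.01 are libraries with 0 counts. In each feature the post-spawning libraries lie outside the range of the 6 other testes, and in 4 of the 9 lower features the spawning libraries lie above all pre-spawning libraries.

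In CPM, the 9 features that fell were lowest after spawning, below all 6 other testes in each, a pattern seen in 7.59% of all features tested. Here too part of the pattern follows from the selection. Of 6235 features with every post-spawning testis below every spawning testis, 3879 had the full pattern. Together the 9 stood at 86.1, 178 and 265 CPM in spawning testes 1, 2 and 3 and at 4.26, 2.95 and 3.15 CPM in post-spawning testes 1, 2 and 3. They followed different courses before spawning. In 4 of them every spawning testis exceeded all 6 other testes, a peak seen in 1.08% of all features tested, or 552 of the same 6235. In the other 5 the pre-spawning level overlapped with or exceeded that at spawning.

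The peak at spawning was clearest in cluster31811, cluster62723 and cluster19653. The feature cluster31811 stood at 2.97, 3.85 and 2.8 CPM before spawning, 22.7, 41.2 and 53.5 CPM at spawning, and 1.77, 1.29 and 1.18 CPM after it. After spawning it was lower than at spawning by a log2 fold change of -4.79 (SE 0.46, edgeR adjusted p = 0.0163; 0.0523 with the season block), and the difference between post-spawning and pre-spawning testes did not pass (-0.59, SE 0.4, adjusted p = 0.339). Its rise from pre-spawning to spawning testes passed in the same fit (4.2, SE 0.45, adjusted p = 0.0259), where 4.04% of all features tested passed.

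The feature cluster62723 ran in parallel at a lower level, with 12, 16.6 and 31.3 CPM at spawning and 0.681, 0.22 and 0.399 CPM after it (log2 fold change -5.43 with SE 0.59, adjusted p = 0.0283 by edgeR; 0.0829 with the block). It stood at 1.72 to 2.17 CPM before spawning. The identifiers of the single transcripts in cluster31811 and cluster62723 have the same stem, so these features are not independent observations. The feature cluster19653, made of 2 transcripts, went from 2.52, 3.62 and 2.71 CPM to 12.7, 25.4 and 39 CPM and then to 1.38, 1.07 and 0.911 CPM (log2 fold change -4.5 with SE 0.5, adjusted p = 0.0327 by edgeR; 0.0935 with the block). In these 3 features spawning testis 3 was the highest and spawning testis 1 the lowest of the spawning libraries. The fourth, cluster13456, stood at 10.1, 16.8 and 9.68 CPM at spawning and 0.298, 0.314 and 0.551 CPM after it (log2 fold change -5.01 with SE 0.57, adjusted p = 0.033 by edgeR, or 0.0935 with the block). Before spawning it stood at 2.43 to 7.09 CPM, and its rise to spawning did not pass (log2 fold change 2.01 with SE 0.49, adjusted p = 0.0509 by edgeR). Its difference between post-spawning and pre-spawning testes passed (log2 fold change -3 with SE 0.53, adjusted p = 0.0268 by edgeR).

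The other 5 lower features were present before and at spawning and nearly or wholly absent after it. The feature cluster20981, made of 2 transcripts, was among the steadiest: 7.27, 11.9 and 7.54 CPM before spawning, 9.85, 7.73 and 7.94 CPM at spawning, and 0 counts in all 3 post-spawning testes. It was at least 372-fold lower after spawning, with a floor of 3 counts over the post-spawning group (edgeR adjusted p = 0.00661; 0.0436 with the block). In ovaries it stood at 10.3 to 43.5 CPM in 8 libraries and at 0 counts in post-spawning ovary 1.

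The features cluster61106 and cluster40229 had 0 counts in every post-spawning testis as well. At spawning they stood at 1.64 to 2.59 CPM and 1.53 to 3.36 CPM, at least 89.9-fold and at least 107-fold above the same floor (edgeR adjusted p = 0.0384 and 0.0441; 0.0935 and 0.0972 with the block). The feature cluster38055 was abundant and uneven, with 20, 23.4 and 54.3 CPM before spawning and 12.8, 64.9 and 117 CPM at spawning. It had 4 counts in the 3 post-spawning testes together, a level 2160 times lower (exact 95% counting interval 842 to 7910; edgeR adjusted p = 0.0283, or 0.0436 with the block). This interval covers counting error only: the ratio was 1290 without spawning testis 3 and 3000 without spawning testis 1. In ovaries it also switched between libraries, from 0 counts in post-spawning ovaries 2 and 3 to 13.5 CPM in pre-spawning ovary 1. The feature cluster6977 fell from 1.57, 0.864 and 1.55 CPM to 0.0851, 0.0627 and 0.0759 CPM (log2 fold change -4.04 with SE 0.5, adjusted p = 0.0441 by edgeR; 0.112 with the block).

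In 15 of the 18 features the difference between post-spawning and pre-spawning testes passed as well, where 6.15% of all features tested passed. Both contrasts use the same post-spawning libraries. The exceptions were cluster31811, cluster62723 and cluster19653, whose post-spawning CPM lay below the pre-spawning libraries without passing the test (edgeR adjusted p 0.339, 0.0833 and 0.245). Because every post-spawning library lay outside the range of the spawning libraries, all 18 features moved in their direction within each of the 3 labelled seasons.

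Features that share a stem in their transcript identifiers with one of the 18 may divide the reads of a gene, of its copies or of its alleles, so each level is uncertain in that respect. Of the 18, 11 had at least 1 partner of this kind past the low-count filter. With each partner counted once, and without cluster31811 and cluster62723 as partners of each other, 23 partners remained. The log2 fold change had the sign of the feature that passed in 19 of the 23. The spawning and post-spawning libraries were separate in that direction in 13, where 12.0% of all features tested were separate and higher and 12.2% separate and lower after spawning. In 3 they were separate in the opposite direction. Many of the 23 were partners of the same feature, cluster58567, so the 23 are not independent observations. Partners of cluster19653 were cluster69544, with 11, 31.7 and 46.4 CPM at spawning and 2.45, 2.67 and 1.42 CPM after it, and cluster70652, with 12.3, 33.4 and 52 CPM and 1.83, 2.63 and 1.08 CPM (edgeR adjusted p = 0.0747 each). The partner of cluster61106, cluster39330, had 0 counts in the 3 post-spawning testes too, against 0.996, 1.08 and 0.787 CPM at spawning. The partner of cluster40229, cluster254, went the other way. It stood at 15.3, 13.9 and 16.7 CPM at spawning and at 21.4, 21.4 and 24.4 CPM after it (edgeR adjusted p = 0.31). The partners of cluster58567 disagreed: cluster74752 stood at 22.6 to 68.3 CPM at spawning and 123 to 148 CPM after it, whereas cluster63774 stood at 3.33 to 20.1 CPM and then at 0.659 to 0.788 CPM, and neither passed (adjusted p = 0.156 and 0.178). These partners were picked for display after their values were seen.

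Some features, a few of the 18 among them, were wholly present at one stage and absent at the other. The rule was 1 CPM or more in all 3 libraries of a stage and 0 counts in the 3 of the other. Of 51080 features tested, 8 were present at spawning only and 20 after spawning only, of which 3 and 1 were among the 18. Between pre-spawning and spawning testes, the same rule gave 1 feature present before spawning only and 2 present at spawning only. Between pre-spawning and post-spawning testes it gave 9 and 21. Of the 20 features present after spawning and absent at spawning, 15 were under 1 CPM in every pre-spawning testis, and 9 reached 1 CPM in some ovaries but in none of these cases in all 9. These features were chosen by the levels they describe, and no test is attached to them. The rule asks for agreement among 3 libraries, and post-spawning testes agreed most. Their pairs held 1 to 12 features present in 1 library only (5 CPM or more against 0 counts), against 57 to 100 in spawning pairs. The part of this likeness in the larger counts after spawning was not tested.

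Of 51080 features tested, 531 higher and 1069 lower ones outside the 18 had separate libraries, at least a 2-fold difference and 10 CPM or more. The 10 CPM applied to the mean of the group with the higher level. At any size of change, libraries were separate and higher in 12.0% and separate and lower in 12.2% of all features tested. The first 5 by p in each direction are described here. The single transcript cluster42424 stood at 2.74, 5.79 and 5.21 CPM at spawning and 105, 93.2 and 88.3 CPM after it (log2 fold change 4.35 with SE 0.59, adjusted p = 0.0529 by edgeR). Before spawning it stood at 1.51 to 6.18 CPM, so the earlier stages overlapped. The feature cluster23139 differed in course: it stood at 179, 109 and 64.4 CPM before spawning, 4.18, 9.59 and 18.1 CPM at spawning, and 99.8, 139 and 120 CPM after it (log2 fold change 3.48 with SE 0.55, adjusted p = 0.0747 by edgeR). All spawning libraries lay below the others, and the post-spawning level overlapped with that before spawning. The feature cluster28601 was also lowest at spawning in CPM, with 17.4 to 37.8 CPM, 11.2 to 12 CPM and 44.4 to 54.6 CPM at the successive stages (post-spawning minus spawning log2 fold change 2.12 with SE 0.31, adjusted p = 0.0712 by edgeR). Its fall from pre-spawning to spawning testes did not pass (-0.76, SE 0.3, edgeR adjusted p = 0.137), whereas that of cluster23139 did (-2.86, SE 0.53, adjusted p = 0.0387).

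The feature cluster20551, a stem partner of cluster58567, stood at 2.85 to 7.3 CPM and then at 36.4 to 39.3 CPM, and cluster65033 at 1.49 to 4.43 CPM and then at 15.2 to 19.7 CPM (edgeR adjusted p = 0.0641 and 0.0712). On the lower side, cluster49817 was limited to spawning testes among all 18 libraries within a few counts, at 15.6, 8.75 and 42.9 CPM, with 0 counts before spawning and 3 counts after it, all in post-spawning testis 3 (adjusted p = 0.0526). With pooled counts divided by pooled library totals, the spawning level was 990 times the post-spawning level (exact 95% counting interval, 338 to 4800). It was 531 times without spawning testis 3 or 636 times without post-spawning testis 1. The feature cluster32941 stood at 7.01, 56.7 and 34 CPM at spawning and 0.721 to 1.01 CPM after it (log2 fold change -5.36 with SE 0.8, adjusted p = 0.0712 by edgeR). Without spawning testis 2 its log2 fold change was -4.44, and without spawning testis 1 it passed at -5.87 (adjusted p = 0.0885 and 0.0054 by edgeR). The other 3 differed less: cluster1902 stood at 11.9 to 20.3 CPM and then at 3.6 to 4.8 CPM, cluster74004 at 32.7 to 50.8 CPM and then at 12.2 to 13.4 CPM, and cluster42351 at 9.29 to 13.2 CPM and then at 2.18 to 3.36 CPM (adjusted p = 0.054, 0.0712 and 0.0723).

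The most abundant features took a larger share of most post-spawning libraries, and none of the 10 passed the test. The 10 leading features of each library took 8%, 19.2% and 11.3% of counts in spawning testes 1, 2 and 3 and 21.6%, 21.6% and 19.1% in post-spawning testes 1, 2 and 3, against 6.29% to 7.43% before spawning. The share was higher after spawning within each season, but spawning testis 2 exceeded post-spawning testis 3, and the difference did not pass (12.8% ± 5.76 against 20.8% ± 1.41, SD, n = 3 each; exact permutation test, two-sided, p = 0.2, adjusted p = 0.3 over 3 library-level comparisons). Libraries of 3 against 3 cannot give a p below 0.1. For the 100 leading features the shares were 29% ± 6 and 36.3% ± 1.29 (exact permutation p = 0.3, n = 3 each), and season 2 went the other way, with 35.7% at spawning and 35.4% after it. The number of features detected, with every testis thinned to 24700000 counts, was 69005 ± 1614 at spawning and 71253 ± 1615 after it (exact permutation p = 0.3, n = 3 each), and was higher after spawning in seasons 1 and 2 but not in season 3. Counting a feature as detected from 5 counts, the means were 46102 and 47011, a difference of 909 in place of 2249, and only season 2 was higher after spawning (exact permutation p = 0.5, n = 3 each).

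The leading places after spawning were held by a pair of large clusters, which had the highest mean shares at spawning too. The feature cluster18, made of 78 transcripts, took 0.827%, 3.37% and 1.48% of counts at spawning and 7.34%, 7.03% and 5.49% after it (log2 fold change 1.7 with SE 0.65, adjusted p = 0.259 by edgeR). The feature cluster0, made of 230 transcripts, took 1.17%, 4.16% and 1.62% and then 7.23%, 5.69% and 4.91% (log2 fold change 1.26 with SE 0.68, adjusted p = 0.394 by edgeR). In both, every post-spawning library exceeded every spawning library, and spawning testis 2 stood far above spawning testes 1 and 3. Without spawning testis 2 their log2 fold changes were 2.67 and 2.25. Before spawning cluster18 and cluster0 took 0.828% and 0.885% on average. Their post-spawning minus pre-spawning differences passed (3.61 with SE 0.7 and 3.4 with SE 0.74, edgeR adjusted p = 0.0316 and 0.0383), where 6.15% of all features tested passed.

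The other leading features differed less or were uneven at spawning. The single transcripts cluster61036 and cluster32980 ranged from 0.81% to 2.26% and from 0.495% to 1.86% at spawning and from 1.52% to 2.45% and from 1% to 1.7% after it (edgeR adjusted p = 0.759 and 0.897). The feature cluster2034 took 1.58% ± 0.59 at spawning and 1.57% ± 0.289 after it (SD, n = 3 each; edgeR adjusted p = 0.979), and cluster1677 and cluster38909 did not pass either (adjusted p = 0.64 and 0.366). The feature cluster954 took 0.557%, 0.304% and 0.33% at spawning and 0.661%, 0.796% and 0.761% after it (log2 fold change 0.92 with SE 0.35, adjusted p = 0.257 by edgeR). The feature cluster73334 ranged from 829 to 10400 CPM within the spawning testes and from 3010 to 5150 CPM after it (adjusted p = 0.837).

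A wide swing was measured in cluster13781, made of 3 transcripts. It stood at 30.2, 20.4 and 64.8 CPM before spawning, at 1830, 23600 and 6240 CPM at spawning, and at 1390, 1290 and 1310 CPM after it. In ovaries it did not exceed 7.95 CPM. Its rise from pre-spawning to spawning testes passed (log2 fold change 8.82 with SE 1.2, adjusted p = 0.0285 by edgeR), and the difference between spawning and post-spawning testes did not (log2 fold change -3.15 with SE 0.92, adjusted p = 0.186 by edgeR), although the libraries did not overlap. Without spawning testis 2 the log2 fold change was -1.45 (edgeR adjusted p = 0.308), and with DESeq2 and with no low-count filter the difference passed (-3.16 and -3.17, adjusted p = 0.00767 and 2.32e-08), while over all alternatives the adjusted p ran up to 1. Spawning testes 1 and 2 differed in this feature more than spawning testis 1 differed from any post-spawning testis.

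**Figure D4:**
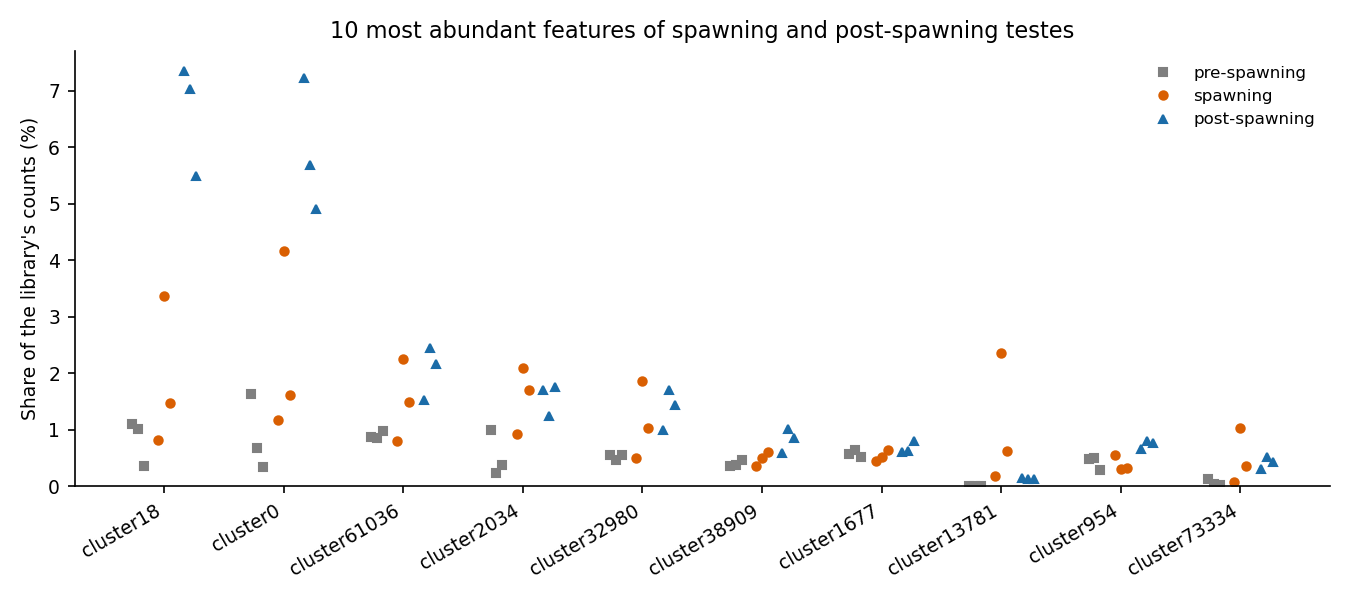
Points give the percentage of each testis library's counts taken by the 10 features of highest mean level in spawning and post-spawning testes, with libraries 1, 2 and 3 from left to right within a stage. The post-spawning libraries lie above all others in cluster18, cluster0 and cluster954, and spawning testis 2 stands apart from spawning testes 1 and 3 in cluster18, cluster0 and cluster13781.

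All tested features were also grouped by the number of transcripts they join. Single transcripts had a median of -0.11 on the log2 scale, 6.83% higher and 9.2% lower at an unadjusted p under 0.05, close to the 6.47% and 9.4% of all features. For features of 10 to 39 transcripts the median was -0.26, with 2.88% higher and 10.6% lower among 2745. For the 143 features of 40 or more transcripts it was -0.28, with 28% above 0. The share of counts in these 143 was 5.15% at spawning and 13% after it on average, and without cluster18 and cluster0 it was 0.942% and 0.4%. Of the 18 features that passed, 12 were single transcripts, as were 48.6% of all features tested, and 0 joined 10 or more transcripts, against 5.65% of all.

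Features were further grouped by their level in ovaries, which the comparison did not use. Among 2994 features with at most 3 counts in each of the 9 ovaries, 12.8% were higher and 6.88% lower after spawning at an unadjusted p under 0.05, and the median log2 fold change was 0.19. Their libraries were separate and higher in 24% and separate and lower in 7.21%, against 12.0% and 12.2% of all features. Features of this kind are low in general, and one that is high at a single stage can pass the low-count filter through that stage alone. These shares therefore describe the features that passed and not all features that ovaries lack. In the other classes of ovary level the median lay between -0.17 and -0.09. Classes of pre-spawning testis level had medians of 0.0 under 1 CPM, -0.14 from 1 to 10 CPM, -0.16 from 10 to 100 CPM and -0.07 at 100 CPM or more. The signs of all these medians were the same with RLE scaling and with library totals, apart from the class at 0.0.

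In a fit on all 18 libraries, 0 of 53536 features passed between spawning and post-spawning ovaries (0.0%; edgeR, with 5289 or 9.88% at an unadjusted p under 0.05, and no other tool was run on ovaries). The test of whether the change differed between the gonads passed for 5 features (0.00934%) of that table, 4 of which were among the 18 features described here: cluster62570, cluster31811, cluster62723 and cluster19653. For cluster62570 the ovaries stood at 0.129 to 1.62 CPM in all stages, and the log2 change in testes minus that in ovaries was 6.7 (SE 0.85, edgeR adjusted p = 0.00634). For the 3 features that peaked at spawning in testes, ovaries held levels near the testis peak at every stage: 10.1 to 38.7 CPM for cluster31811, 4.33 to 24.2 CPM for cluster62723 and 19.5 to 39.3 CPM for cluster19653. Their differences of change were -5.37 (SE 0.67), -5.92 (SE 0.82) and -4.83 (SE 0.58), with adjusted p of 0.00634, 0.0166 and 0.00634. For the other 14 features the difference between gonads did not pass. Among these, cluster13456 gave -5.43 (SE 0.9, adjusted p = 0.0537), and cluster58567 gave 1.34 (SE 0.84, adjusted p = 0.53). For cluster48007 and cluster62775, also among the 14, the test could not decide. Spawning ovaries held 0 counts of both, and the SE of the difference was 9410.91 and 4306.04.

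**Figure D5:**
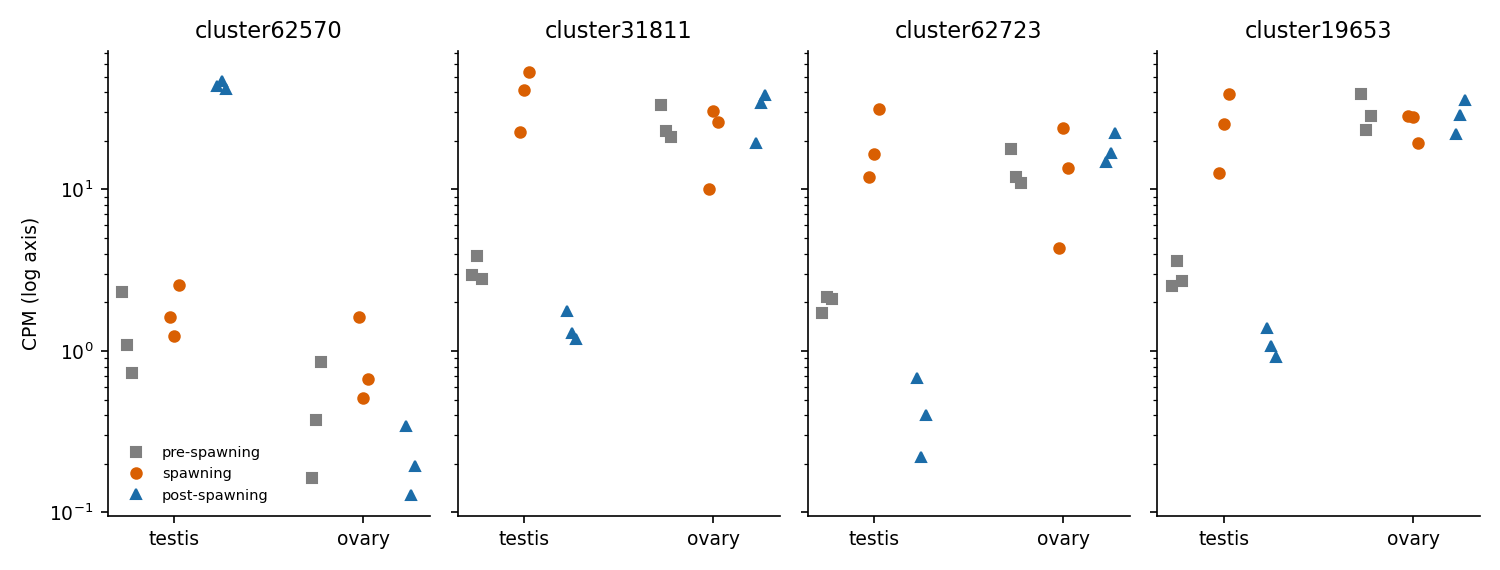
Points give CPM on a log axis in testes (left) and ovaries (right) of each panel, by stage and with libraries 1, 2 and 3 from left to right, for the 4 features whose change differed between the gonads. In cluster62570 the post-spawning testes, at 41.7 to 47.3 CPM, lie above all other libraries. In the other 3 features pre-spawning and post-spawning testes lie below all ovaries and spawning testes lie within or near the ovary range.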

How the data were processed

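Total RNA of gonads was extracted with Trizol, depleted of ribosomal RNA by a mammalian (human, mouse, rat) kit, and sequenced, per the labels' protocols. The authors deposited whole-number counts per feature and a text map of 251830 transcripts to 135031 features. The submitters' processing notes name fastp and Salmon, so the deposited counts may be rounded estimates. The 15 largest values all end in 0, and the reason was not tested. No source used here gives the transcriptome or the clustering method. Of 168164 identifier stems, 18.9% were split over several features, so the reads of a gene may be divided.

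Counts of the 9 testis libraries were tested with edgeR 4.0.16 in R 4.3.3 (quasi-likelihood test, 3 group means, TMM scaling, filterByExpr, Benjamini-Hochberg adjustment over 51080 features, threshold 0.05). The fit was tried on simulated data with independent libraries and the same spread of a feature at all stages. The unequal spread of the stages was not simulated, so that trial does not cover it. The fitted biological coefficient of variation was 57.1%. Standard errors came from the F statistic. The change in testes minus that in ovaries was fitted on all 18 libraries. Library-level values were compared with exact permutation tests in SciPy 1.17.1, and counting intervals are exact at 95%. DESeq2 1.42.0, other scalings, filters and library sets, and leaving out each library were tried as alternatives.

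The text names every feature that passed, the 10 most abundant over the 6 libraries, and the next 5 in each direction by p with separate libraries, a log2 change of at least 1 and 10 CPM. The members, lists and rules were chosen with earlier results of these data known. Lists of marker genes were prepared and could not be applied, since no gene names were available. The labels give season as a batch, and season equals the library number, so same-numbered libraries share a season; their deviations from group means correlated at -0.208 to 0.296, against -0.463 to 0.319 for different seasons. Since no label says that libraries of a stage came from separate fish, p-values reflect differences among these samples that may be technical.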

Additional observations from a re-analysis of the deposited data

Results flagged for a closer look

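The change from spawning to post-spawning differed between testes and ovaries in 4 of the features described, by the test of the difference itself on all 18 libraries. The log2 change in testes minus that in ovaries was 6.7 for cluster62570, -5.37 for cluster31811, -5.92 for cluster62723 and -4.83 for cluster19653. In ovaries the log2 changes were -2.01, 0.62, 0.52 and 0.36, and none of them passed (edgeR adjusted p = 0.325, 0.684, 0.793 and 0.804). The features cluster31811 and cluster62723 share an identifier stem and are not independent of each other. The part of the likeness of the post-spawning testes in these values was not tested.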

How the results depend on the processing

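The number of features past the threshold depended on the processing, and none of the 18 features reversed under any alternative run. The 18 were selected from the same libraries, and each had separate spawning and post-spawning libraries and at least a 4-fold change. That selection left little room for a reversal. Against 18 of 51080 features tested, RLE scaling gave 33, robust dispersion 30 and DESeq2 2700 (1212 higher, 1488 lower) of the same number tested. The 6 libraries alone gave 62 of 46100 tested, and no low-count filter gave 3815 of 126519 (950 higher, 2865 lower). All 18 passed with RLE, robust dispersion, no filter and DESeq2. Library totals gave 12 of 51080, all among the 18, and the fit on 18 libraries gave 20 of 53536 tested, of which 9 were among them. The season block, which pairs libraries of the same number, gave 3 (1 higher, 2 lower) and left the other 15 at adjusted p of 0.0523 to 0.115. Leaving out single libraries gave 0 to 177, in fits that tested 53659 to 54718 features. The post-spawning testes taken as 1 sample gave 0. The cause of these shifts was not tested.

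Reversals occurred in abundant features that had not passed. The log2 change of cluster2034 was 0.0 with 18 libraries, 0.03 with the post-spawning testes as 1 sample, and -0.37 to 0.41 when single libraries were left out. Such leave-one-out values ran from -0.03 to 0.95 for cluster61036, from -0.23 to 0.98 for cluster32980 and from -0.97 to 1.02 for cluster73334, with spawning testes 1 and 2 giving the extremes in all 4. Displaced shares, spreads and library-level differences moved by less than their spread under the alternatives run. Low counts limit cluster48007, cluster62775 and cluster6977 to wide intervals or bounds.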
